A study of Rattus norvegicus with 3 samples.

Results

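A set of 9 genes widely used to mark astrocytes (Gfap, Aqp4, Aldh1l1, Gja1, Gjb6, S100b, Sox9, Slc4a4 and Vim) were followed through the motor cortex of 3 rats. They were taken by gene symbol, by a rule that uses no measured value although earlier results of these data were known, and all 9 were found, each under 1 gene ID, among the 30957 genes of the deposited tables. The animals were untreated male Sprague-Dawley rats, an outbred stock, numbered 32, 39 and 68, each with 1 library of messenger RNA from the dissected cortex. The labels place them in 1 normal group with a time of 8 weeks, without saying what that time counts from, so no comparison between conditions was possible. Differences between animals, dissections and libraries cannot be told apart. Levels are FPKM, that is fragments per kilobase of gene scaled to the fragments of the library, so that genes of different length can be set side by side. In bulk tissue, fewer astrocytes and less RNA per astrocyte cannot be told apart either.

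Astrocytes are the star-shaped glial cells of the cortex. They clear glutamate and potassium from around synapses, couple to each other through gap junctions, and wrap blood vessels with end-feet that carry water and bicarbonate channels and transporters. The genes described here cover these tasks: filament proteins of the cytoskeleton (Gfap, Vim), gap junction proteins (Gja1, Gjb6), end-foot and membrane transport (Aqp4, Slc4a4), a calcium-binding protein (S100b), a folate enzyme (Aldh1l1) and a transcription factor of glial fate (Sox9). None is made by astrocytes alone in every setting: Vim is also made by vascular, meningeal and ependymal cells, and S100b by part of the oligodendrocytes.

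The inferred depth was 16550241, 15460924 and 17666573 fragments in animals 32, 39 and 68. The lowest single value among the 9 genes, 2.76 FPKM for Sox9 in animal 32, then stood for about 45.6 fragments per kilobase, and the highest, 798 FPKM for S100b in animal 68, for about 14110. The library of animal 68 stood apart. The summed level of 9 choroid plexus markers, which name the secretory epithelium of the ventricles, was 11.6, 637 and 7608 FPKM in animals 32, 39 and 68. Mitochondrially encoded genes held 28.4, 26.4 and 21.4% of all FPKM in the same order. Levels are therefore given for all 3 animals, and counts of the 9 genes for each pair of animals.

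The summed level of the 9 genes was 745 FPKM in animal 32, and the sums for animals 39 and 68 were 760 and 1433. This was 0.155, 0.161 and 0.313% of each library's FPKM (mean 0.210 ± 0.0895%, SD, n = 3), and 0.158% as the mean of animals 32 and 39 alone. S100b and Gfap made up 80.3, 78.6 and 80.3% of the sum. The sum thus differed little between animals 32 and 39 and was higher in animal 68, with a nearly constant part held by its leading pair.

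**Figure D1:**
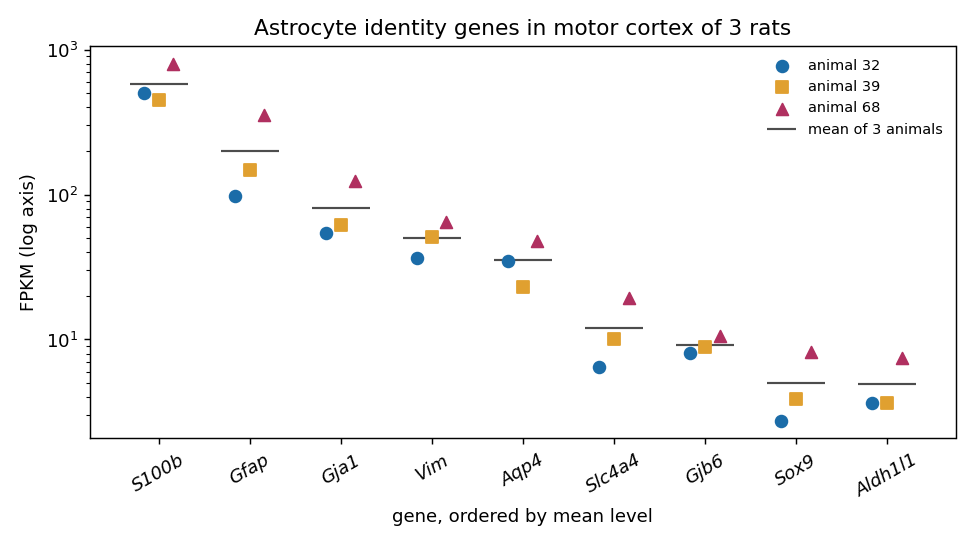
FPKM (log axis) of each of the 9 genes, ordered by mean level, in animals 32 (circles), 39 (squares) and 68 (triangles); horizontal lines are means of the 3 animals. The triangle is the highest point for all 9 genes, and levels run from 583 FPKM for S100b to 4.91 for Aldh1l1 on average.

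S100b, a small calcium-binding protein that astrocytes also release, had the highest level. The gene (ENSRNOG00000001295) lies on chromosome 20, 13130636 to 13142856, minus strand, in the Rnor_6.0 build to which all gene positions here refer. It was at 501, 450 and 798 FPKM in animals 32, 39 and 68 (583 ± 188, SD, n = 3). Animals 32 and 39 lay close together and animal 68 above both, by 1.59-fold over animal 32. Folds here and below were taken on FPKM plus 0.1. Its mean ranked 51 among all genes. The background used throughout is 13378 tested genes, those averaging 1 FPKM or more over the animals, and 0.4% of them were higher.

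Gfap, the glial fibrillary acidic protein that forms the intermediate filaments of astrocytes, was second and the most variable (ENSRNOG00000002919; chromosome 10, 90990762 to 90999435, minus strand). Its level was 97.3, 148 and 352 FPKM in animals 32, 39 and 68 (199 ± 135). All 3 animals were separated, with animal 39 at 1.52 times the level of animal 32 and animal 68 at 2.38 times that of animal 39. Its SD over animals was 0.95 on the log2 scale, which 3.2% of the tested genes exceeded. Without animal 68 its mean was 123 FPKM.

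Vim, the vimentin filament protein that assembles with Gfap in astrocytes, varied less (ENSRNOG00000018087; chromosome 17, 80882666 to 80891212, plus strand). It was at 36.4, 50.8 and 64.2 FPKM (50.5 ± 13.9), so animals 32 and 68 again held the ends. Gfap exceeded Vim in every animal, by 2.67-fold in animal 32, 2.91-fold in animal 39 and 5.48-fold in animal 68. For this filament pair, the ratio of Gfap to Vim messenger RNA in bulk tissue was therefore alike in animals 32 and 39 and larger in animal 68. Filament protein was not measured.

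Gja1 encodes the main connexin of astrocyte gap junctions (ENSRNOG00000000805; chromosome 20, 37876650 to 37889089, plus strand) and Gjb6 the second one (ENSRNOG00000022116; chromosome 15, 37400889 to 37410848, minus strand). Gja1 was at 54.1, 62.1 and 125 FPKM in animals 32, 39 and 68 (80.3 ± 38.7). Gjb6 was at 8.01, 8.89 and 10.6 FPKM (9.17 ± 1.32). Gja1 in animal 68 stood clear of the other animals, while Gjb6 had the narrowest range of all 9 genes, 1.32-fold from end to end. Gja1 exceeded Gjb6 by 6.69, 6.92 and 11.7-fold, a ratio that was alike in animals 32 and 39 and larger in animal 68. Gjb6 was also the 1 member whose log2 SD (0.20) was at the level of the median gene (0.20).

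The start-proximal sequences of both pairs are printed because their partners differed in how far they moved between animals. They are the 250 bases before a RefSeq start, 5′ to 3′ on the gene's strand, in the GRCr8 build, a later build than that of the tables. Capitals mark matches, on either strand, to 7 motifs. The core promoter motifs searched were the TATA box spelled TATAAA, the CCAAT box spelled by its own name, and the GC box spelled GGGCGG. The factor motifs searched were TGANTCA for AP-1, then TTCNNNGAA for STAT factors, then AACAAT for SOX factors, and lastly TTGGC for NFI factors. Matches to the CCAAT box and the NFI motif can overlap, as they do in Vim.

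Gfap upstream window, chr10:88361662-88361911, minus strand: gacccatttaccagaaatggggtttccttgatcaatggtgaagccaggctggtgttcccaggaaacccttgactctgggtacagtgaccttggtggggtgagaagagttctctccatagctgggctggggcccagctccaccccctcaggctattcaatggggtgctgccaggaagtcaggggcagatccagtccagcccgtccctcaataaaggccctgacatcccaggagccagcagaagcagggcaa

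Vim upstream window, chr17:81577011-81577260, plus strand: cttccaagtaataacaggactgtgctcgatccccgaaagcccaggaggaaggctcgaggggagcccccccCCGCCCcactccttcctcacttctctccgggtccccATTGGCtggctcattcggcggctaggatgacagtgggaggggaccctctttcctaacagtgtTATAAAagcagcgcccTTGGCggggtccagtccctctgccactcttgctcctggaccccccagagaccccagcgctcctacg

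Gja1 upstream window, chr20:36302314-36302563, plus strand: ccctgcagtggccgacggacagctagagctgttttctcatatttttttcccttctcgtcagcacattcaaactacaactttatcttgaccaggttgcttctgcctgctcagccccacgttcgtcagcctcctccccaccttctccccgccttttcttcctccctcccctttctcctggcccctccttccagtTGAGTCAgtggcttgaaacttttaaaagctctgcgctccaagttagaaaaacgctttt

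Gjb6 upstream window, chr15:35410139-35410388, minus strand: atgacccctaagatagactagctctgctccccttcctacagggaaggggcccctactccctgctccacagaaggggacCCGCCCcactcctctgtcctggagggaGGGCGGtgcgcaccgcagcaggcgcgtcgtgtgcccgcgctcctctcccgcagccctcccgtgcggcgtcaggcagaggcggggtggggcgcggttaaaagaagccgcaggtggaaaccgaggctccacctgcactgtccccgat

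The Gfap window held none of the 7 motifs, and the Vim window held the TATA box, the CCAAT box, the GC box and the NFI motif. Gja1 had a single match, to the AP-1 motif, and the printed Gjb6 window had matches to the GC box only. Another Gjb6 window, not printed here, had matches to the GC box and the NFI motif. RefSeq windows were found for all of the 9 genes but Sox9, 10 windows in all. The TATA box was in 1 of these windows and in 12.9% of 33469 windows of the same length, the CCAAT box in 4 (34.0% of all) and the GC box in 5 (30.5%). The AP-1 motif was in 1 (6.3% of all) and the NFI motif in 4 (40.3%). Neither the STAT motif (7.7% of all) nor the SOX motif (10.3%) was in any of the 10. With 10 windows these shares are descriptions, and a match is not a measured binding site. The GC content of the windows ran from 44.8% (an Aqp4 window) to 80.8% (Slc4a4), around a median of 51.2% over all windows.

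Aqp4, the water channel of astrocyte end-feet, was the gene that differed in order between animals (ENSRNOG00000016043; chromosome 18, 6765945 to 6782996, minus strand). Its level was 35.0, 23.0 and 48.0 FPKM in animals 32, 39 and 68 (35.3 ± 12.5). Animal 39 was thus the lowest, at 0.656 times the level of animal 32. S100b (0.898) and Aldh1l1 (0.990) were also lowest in animal 39, by less. The ratio of Gfap to Aqp4 was 2.77 in animal 32, against 6.42 in animal 39 and 7.33 in animal 68.

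Slc4a4, the electrogenic sodium bicarbonate cotransporter with which astrocytes regulate pH, was at 6.42, 10.1 and 19.3 FPKM in animals 32, 39 and 68 (11.9 ± 6.64; ENSRNOG00000003134; chromosome 14, 20479323 to 20920286, minus strand). It followed Gfap in the size of its range, with animal 68 at 2.98 times the level of animal 32. Animals 32 and 39 differed by 1.57-fold, the largest difference between those animals among the 9 genes.

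Sox9, a transcription factor that sets glial fate and stays on in mature astrocytes, and Aldh1l1, a formyltetrahydrofolate dehydrogenase used as a general astrocyte marker, had the lowest levels. Sox9 (ENSRNOG00000002607; chromosome 10, 101288489 to 101293379, plus strand) was at 2.76, 3.91 and 8.26 FPKM (4.98 ± 2.90). Aldh1l1 (ENSRNOG00000047023; chromosome 4, 123516788 to 123557501, minus strand) was at 3.67, 3.63 and 7.44 FPKM (4.91 ± 2.19). Both were about doubled or more in animal 68, but only Sox9 differed between animals 32 and 39, by 1.41-fold against 0.990-fold for Aldh1l1. The ratio of Gfap to Sox9 was among the steadier ones, at 34.1, 36.8 and 42.1 in animals 32, 39 and 68.

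The order of levels was largely kept within each animal. S100b, Gfap, Gja1, Vim and Aqp4 held ranks 1 to 5 in every library. Of the 36 pairs of genes, 34 had the same member higher in all 3 animals, and in 28 the ranges over animals did not overlap. Mean levels of the members ran from 4.91 to 583 FPKM, and the same counts were not made for pairs of other genes. These counts therefore only describe the members. An exact sign-flip permutation test of 3 within-animal log2 ratios (two-sided) cannot go below p = 0.25, so no pair can pass a threshold of 0.05, and spreads are given instead. Among neighbours in the order, S100b over Gfap (log2 ratio 1.72, SD 0.60) and Aqp4 over Slc4a4 (1.64, SD 0.69) had ranges that did not overlap. Gfap over Gja1 (1.2, SD 0.33), Gja1 over Vim (0.61, SD 0.34) and Gjb6 over Sox9 (1.01, SD 0.59) kept their direction in 3 of 3 animals with ranges that overlapped.

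The other 3 neighbouring pairs did not differ beyond their spread. Vim over Aqp4 had a log2 ratio of 0.54 with an SD of 0.55, although Vim was higher in 3 of 3 animals. Slc4a4 over Gjb6 was 0.24 with an SD of 0.59, and Gjb6 was the higher in animal 32. Sox9 over Aldh1l1 was -0.05 with an SD of 0.31, and Aldh1l1 was the higher in animal 32. The lower end of the order therefore holds 2 pairs whose places changed between animals.

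How far the 9 genes differed between animals was set against all 13378 tested genes. All 9 were highest in animal 68, where 46.7% of tested genes were highest. For 6 of the 9 (Gfap, Gja1, Vim, Slc4a4, Gjb6 and Sox9) animal 32 was lowest and animal 68 highest, an order found for 32.9% of tested genes. The count of 9 was also reached under each of 3 other scalings of the libraries, where 39.3, 40.3 and 36.7% of tested genes were highest in animal 68. Median of ratios and equal totals could not have changed it. Their factors lay between 0.969 and 1.035, and the smallest lead of animal 68 was 1.19-fold (Gjb6, over animal 39). With 1 library per animal these counts carry no test.

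Animal 68 was over 2-fold higher than animal 32 for 5 of the 9 genes (Gfap, Slc4a4, Sox9, Gja1 and Aldh1l1), against 9.77% of tested genes. No member was over 2-fold lower, against 3.05%. The median log2 difference was 1.0 for the 9 genes and 0.07 for all tested genes. Aldh1l1 lay at the limit, at 2.002-fold, with Vim the nearest below at 1.76-fold, and 4 genes passed when libraries were scaled by the median of ratios, against 8.24% of tested genes.

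Animal 68 was over 2-fold higher than animal 39 for 5 of the 9 as well (Gfap, Aqp4, Sox9, Aldh1l1 and Gja1), against 4.18% of tested genes, and none was over 2-fold lower, against 1.97%. The median log2 difference was 1.01 for the 9 genes and 0.03 for all tested genes. This comparison shares animal 68 with the one before, so they are not independent. All but Gfap of these 5 lay between 2.01 and 2.09-fold, and 3 passed after scaling by the median of ratios, against 3.73% of tested genes.

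Between animals 32 and 39, in which animal 68 has no part, none of the 9 genes passed 2-fold in either direction. Of tested genes, 2.59% were over 2-fold higher in animal 39 and 0.553% over 2-fold lower. The median log2 difference was 0.20 for the 9 genes and 0.04 for all tested genes. The members ran from -0.61 (Aqp4) to 0.65 (Slc4a4).

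**Figure D2:**
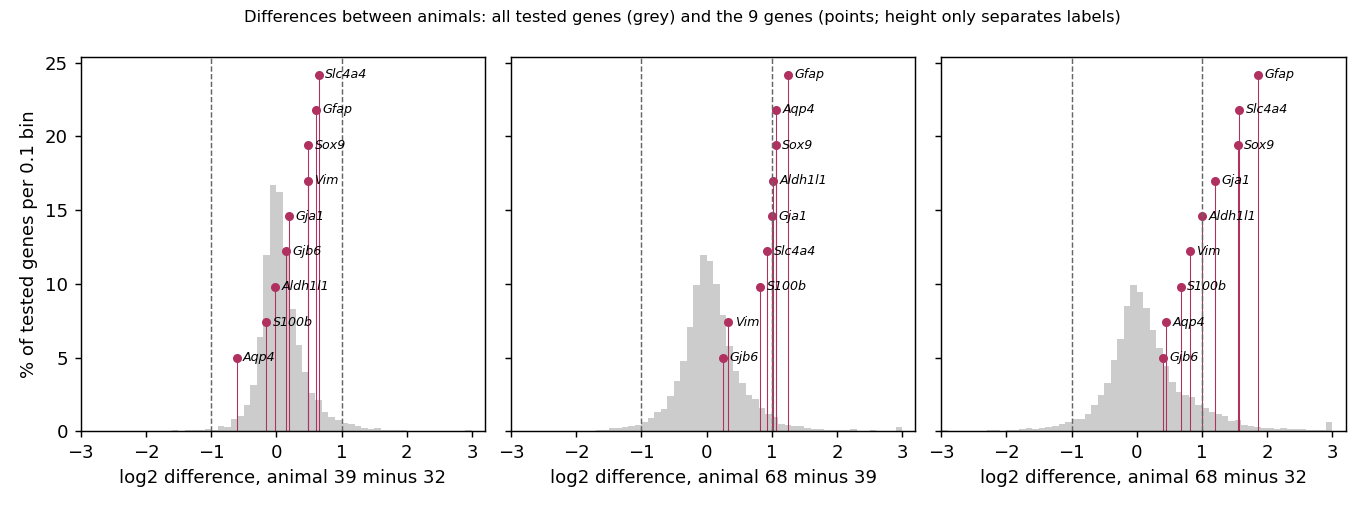
Log2 differences in FPKM plus 0.1 for each pair of animals: grey bars give the percentage of the 13378 tested genes per bin of 0.1 (values beyond the axis are collected in the end bars), red points the 9 genes, with heights that only separate the labels, and dashed lines 2-fold. The points straddle 0 between animals 32 and 39 and all lie to the right of 0 in both comparisons with animal 68.

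Spread over animals differed between the 9 genes. The SD of log2 values ran from 0.20 (Gjb6) through 0.41 (Vim), 0.44 (S100b), 0.53 (Aqp4), 0.58 (Aldh1l1) and 0.65 (Gja1) to 0.79 (Slc4a4 and Sox9) and 0.95 (Gfap). The median was 0.58 against 0.20 over all tested genes. Without animal 68 the medians were 0.34 and 0.12, over the pair of animals left. The share of tested genes with a greater SD was 49.2% for Gjb6, 21.7% for Vim, 19.5% for S100b and at most 13.8% for the other 6.

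**Figure D3:**
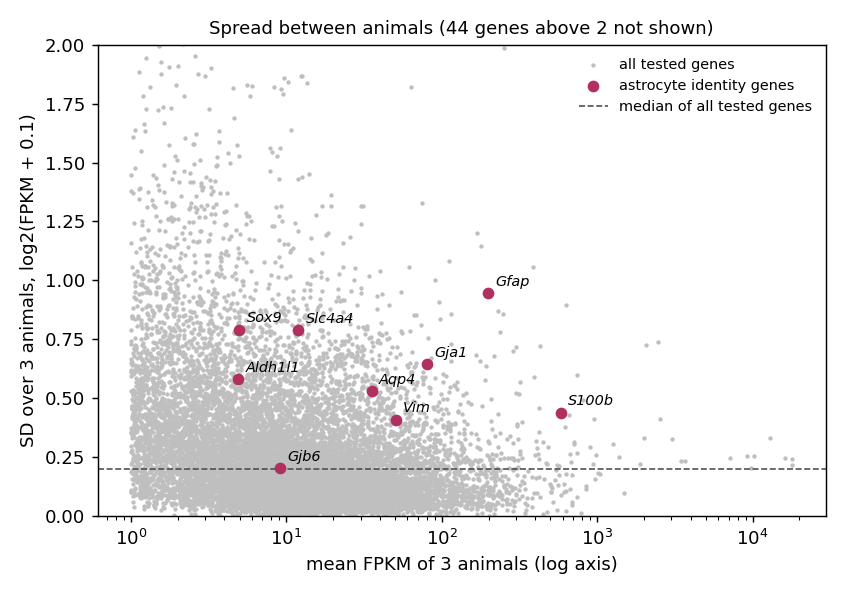
SD over the 3 animals of log2(FPKM + 0.1) against mean FPKM (log axis) for the 13378 tested genes (grey) and the 9 astrocyte identity genes (red), with the median of all tested genes (0.20) as a dashed line; genes above the top of the axis are not shown. Gjb6 lies on the line and the other 8 genes above it, with Gfap highest at 0.95.

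A second list of 18 astrocyte genes that shares no member with the first was read alongside. It holds glutamate and GABA uptake, potassium buffering, lipid carrier and end-foot genes. Of the 18, 17 were highest in animal 68 and 7 over 2-fold higher there than in animal 32, with a median log2 difference of 0.86. Over all tested genes these values were 46.7%, 9.77% and 0.07. Apoe, the lipid carrier of the brain, was at 747, 852 and 1115 FPKM in animals 32, 39 and 68, and Glul, the glutamine synthetase that recycles glutamate, at 428, 423 and 557. Clu, a secreted chaperone, was at 192, 221 and 483 FPKM. Slc1a2, the main glutamate transporter, had the widest range of this list (62.5, 177 and 299 FPKM), and Fjx1 was the gene not highest in animal 68 (26.4, 27.1 and 25.1 FPKM); both were chosen after their values were seen.

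Each of the 9 genes was then expressed relative to the mean log2 level of these 18 genes in the same library, a step added after the data were seen. On that scale the median SD over animals was 0.26 for the 9 genes, in place of 0.58, and 0.46 for all tested genes, in place of 0.20. The mean of the 18 genes was itself 0.88 higher in animal 68 than in animal 32 on the log2 scale. Subtracting it narrows genes that rose alike and widens genes that stayed level, so these changes in SD are no test. No member differed over 2-fold between animals 68 and 32 on the relative scale. The share of all tested genes that did so was not computed, so this count does not set the 9 genes apart. Gfap still stood 0.97 higher in animal 68 than in animal 32 on the log2 scale, Slc4a4 0.69 and Sox9 0.67, and between animals 39 and 32 the same genes differed by 0.38, 0.42 and 0.26. Gja1 (0.32), Aldh1l1 (0.12), Vim (-0.07) and S100b (-0.21) lay closer to 0. Aqp4 (-0.43) and Gjb6 (-0.48) were lower in animal 68 relative to the other astrocyte genes, and Aqp4 was lower still in animal 39 (-0.83 against animal 32).

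Markers of other cells also differed between animals, and their part in the results above was not tested. All 10 oligodendrocyte markers were over 2-fold higher in animal 68 than in animal 32, with summed levels of 3383, 5209 and 9159 FPKM in animals 32, 39 and 68 and Mbp, a myelin protein, at 1341, 2305 and 3727. Of 6 oligodendrocyte precursor markers, 5 were over 2-fold higher (sums 83.6, 122 and 195 FPKM), and of 8 microglia markers 4 were (sums 51.1, 83.8 and 115 FPKM), all 8 being highest in animal 68. The median log2 differences were 1.45, 1.19 and 1.06 for these lists, against 1.0 for the 9 astrocyte genes and 0.07 for all tested genes. Of all tested genes, 9.77% were over 2-fold higher in animal 68 than in animal 32.

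Markers of the ventricle lining and of striatal neurons were also higher in the library of animal 68. All 9 choroid plexus markers found were over 2-fold higher, and 7 of 8 tested ependymal markers were (sums 27.1, 42.2 and 86.9 FPKM). Of 8 striatal neuron markers, 7 were over 2-fold higher (sums 127, 102 and 242 FPKM). Neuron markers went the other way, with 9 of 10 highest in animal 32 and sums of 3973, 3471 and 2884 FPKM, and Snap25 at 1206, 971 and 685.

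Vascular lists, whose cells also make Vim, were closer between animals. The 7 endothelial markers found summed to 127, 113 and 105 FPKM and the 7 mural cell markers to 92.2, 117 and 105 in animals 32, 39 and 68, with none over 2-fold apart between animals 68 and 32. Meningeal fibroblast markers summed to 35.6, 49.0 and 99.9 FPKM, of which Igf2 held 11.3, 17.1 and 65.2, with 2 of 7 tested genes over 2-fold higher, 1 over 2-fold lower and Col1a2 listed at 0 in every library. Col1a2 was the 1 marker of these lists at 0 throughout, while Col1a1 of the same list was at 3.27, 5.62 and 5.48 FPKM. Why Col1a2 was at 0 was not tested. Each of the 9 astrocyte genes was at 2.76 FPKM or more in every library.

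**Figure D4:**
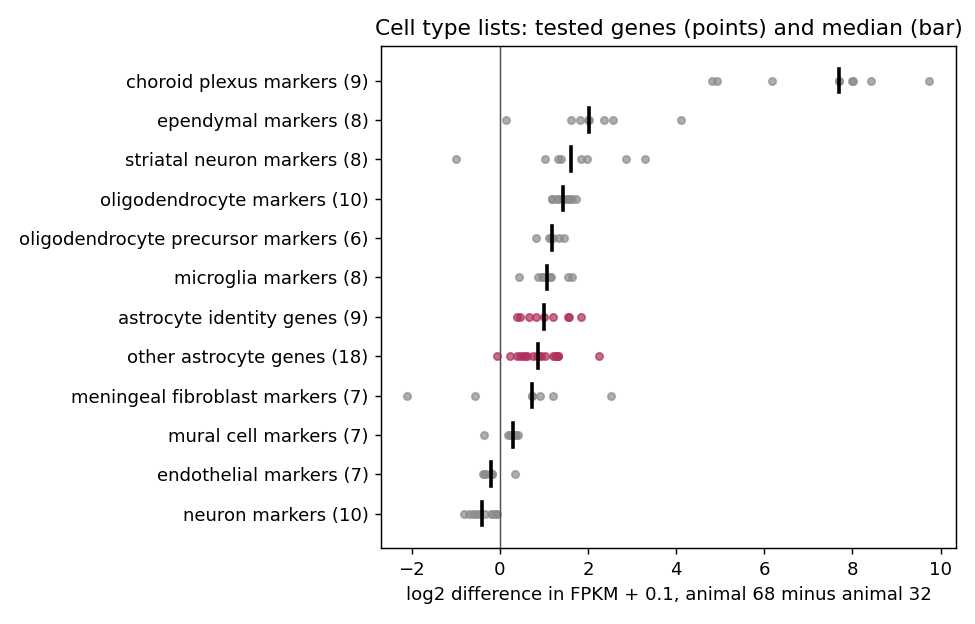
Log2 difference in FPKM plus 0.1 between animals 68 and 32 for each tested gene (points) of 12 cell type lists, number of genes in brackets, with the list median as a black bar; red marks the astrocyte lists. The medians run from 7.70 for choroid plexus to -0.41 for neurons, with 1.0 for the astrocyte identity genes.

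Genes related to single members were read from lists drawn up for this purpose, with counts over the tested genes of each list. Over all tested genes, 9.77% were over 2-fold higher in animal 68 than in animal 32 and 3.05% over 2-fold lower. Of 18 connexin and pannexin genes other than Gja1 and Gjb6, 9 were tested and 3 were listed at 0 in every library. Of the 9, 3 were over 2-fold higher in animal 68 than in animal 32 and none over 2-fold lower. Among the genes of the list with the highest mean levels were Panx2, a neuronal pannexin (56.5, 51.4 and 44.7 FPKM), and the oligodendrocyte connexins Gjc3 (17.6, 19.0 and 41.8) and Gjb1 (4.51, 6.66 and 12.1). Gja1 was thus the highest connexin in every animal, while Gjb6 lay below Gjc3 in every animal.

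Aquaporins other than Aqp4 and the proteins that anchor it at the end-foot membrane formed a list of 13, with 3 listed at 0 in every library. Of the 9 tested, 2 were over 2-fold higher in animal 68 than in animal 32 and none over 2-fold lower. The anchors Dag1 (28.2, 28.3 and 39.0 FPKM) and Dtna (9.74, 10.2 and 11.6) varied by less than 1.5-fold from animal 32 to 68. Agrn, a matrix protein of the end-foot basal lamina, was at 32.1, 31.1 and 21.2 FPKM. None of these 3 shared the low value that Aqp4 had in animal 39.

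In the S100 family, 13 of 14 listed genes were found and 8 tested, with 5 over 2-fold higher and none over 2-fold lower in animal 68 than in animal 32. S100a16 (17.2, 29.2 and 38.8 FPKM), S100a10 (28.7, 30.1 and 24.0), S100a1 (17.6, 24.7 and 39.9) and S100a13 (18.3, 19.1 and 28.7) were the highest after S100b. S100b exceeded each of them in every animal. The SLC4 family of bicarbonate transporters was led by neuronal Slc4a10 (65.3, 57.8 and 59.2 FPKM), above Slc4a4 in every animal. Slc4a3 was at 34.0, 30.6 and 21.5 FPKM, Slc4a2 at 7.36, 9.73 and 40.8, and Slc4a5, a transporter of the choroid plexus, at 0.155, 1.51 and 37.6. In this family 3 of 7 tested genes were over 2-fold higher in animal 68 and 1 over 2-fold lower.

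Of 16 tested transcription factors among SOX and other gliogenic genes, 8 were over 2-fold higher in animal 68 than in animal 32, and none over 2-fold lower. Sox10, the oligodendrocyte counterpart of Sox9 in the same subgroup, was at 17.9, 30.5 and 44.8 FPKM, above Sox9 in every animal. Nfix (45.8, 51.8 and 39.5 FPKM) and Nfic (19.8, 19.5 and 20.04), of the NFI family, showed no such difference. The other NFI genes, named after their values were seen, did: Nfia was at 2.97, 5.99 and 9.10 FPKM and Nfib at 4.45, 12.1 and 12.99. Id3, an inhibitor of helix-loop-helix factors, was at 16.9, 27.0 and 36.6 FPKM.

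Of 13 tested folate enzymes, 2 were over 2-fold higher in animal 68 and none over 2-fold lower. Shmt2 (13.5, 12.1 and 13.9 FPKM), Gart (12.8, 10.2 and 13.4), Mthfd1 (9.03, 8.34 and 12.8) and Atic (7.42, 7.21 and 11.5) all exceeded Aldh1l1 in every animal. Aldh1l1 in turn exceeded its mitochondrial relative Aldh1l2 (0.0873, 0.257 and 0.102 FPKM; named after its values were seen) in every animal. Among 8 tested filament genes other than the members, 3 were over 2-fold higher in animal 68 than in animal 32. Their highest were the nuclear lamins Lmna (8.90, 10.1 and 10.8 FPKM), Lmnb2 (5.44, 5.88 and 5.37) and Lmnb1 (4.22, 5.03 and 3.61), and the epithelial keratin Krt8 (1.10, 1.54 and 8.14). Each lay below Vim in every animal. In a list of 6 genes, mostly linker proteins between filaments or actin and the membrane, 1 was over 2-fold higher, Ezr, the ezrin of astrocyte processes and epithelia (15.7, 19.8 and 55.6 FPKM), while Rdx was at 28.4, 28.1 and 38.5, Gfpt1, a hexosamine enzyme, at 16.6, 17.6 and 25.0, and Plec at 16.3, 16.1 and 10.9.

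Of 17 genes associated with reactive astrocytes that were found, 9 averaged 1 FPKM or more, and the median of the 17 was 0.857, 0.922 and 1.82 FPKM in animals 32, 39 and 68. Stat3, a signal transducer of gliosis, was at 15.9, 12.9 and 15.1 FPKM, and Hspb1, a small heat shock protein, at 3.09, 4.78 and 8.57. The complement gene C3 was at 0.857, 1.47 and 6.14 FPKM and the protease inhibitor Timp1 at 1.55, 2.80 and 2.07. Of the 9 tested, 3 were over 2-fold higher in animal 68 than in animal 32 and none over 2-fold lower.

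Genes whose profile over the 3 animals was most like that of Gfap were found by the root mean square distance of centred log2 values over 3 libraries. They were Lhb (0.577, 0.915 and 2.36 FPKM), Atp11a (10.7, 16.1 and 38.1), Creb5 (0.894, 1.45 and 3.59), Nek5 (0.884, 1.37 and 3.34) and Hist1h4b (2.84, 4.44 and 10.4), at distances of 0.01 to 0.02. The mean profile of the other 8 genes was matched most closely by AABR07028998.1 (0.857, 0.961 and 1.76 FPKM), Smox (8.34, 9.21 and 16.2), Sepp1 (105, 117 and 206), Add3 (16.8, 18.4 and 32.4) and Antxr1 (6.77, 7.62 and 13.5). With 3 libraries such likeness is common, since 61 of 13369 genes lay within 0.1 of Gfap and 384 within 0.1 of the mean of the others.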

How the data were processed

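One mRNA library per animal was analysed for 3 rats of 1 group. Gene levels were deposited by the authors as FPKM, calculated by a Perl script, per the labels and the design text. The submitters' processing notes list HISAT2 2.0.4, StringTie 1.3.0 and Rnor_6.0; their roles, the annotation release and strandedness were not given in the sources used here. Without strand, overlapping genes cannot be told apart.

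Values were analysed as log2(FPKM + 0.1), with genes averaging at least 1 FPKM as background. Depth was inferred from loci of up to 400 bases, where FPKM times span is a whole multiple of 1 fragment: 85.0, 86.6 and 85.7% of values were whole within 0.02 fragments, at the depth chosen to make this share largest. Fragments per kilobase cover counting error only. Of 235 listed symbols, 226 were found; those not found were not analysed here. The members and lists were chosen with earlier results of these data known. Named genes are the 9 members, the 4 highest of each related list, up to 2 of each cell type list and the 5 nearest profiles. Some genes under this rule are not reported here. Python 3.11.15, pandas 2.3.3, numpy 2.4.6, scipy 1.17.1 and matplotlib 3.10.9 were used. Alternatives changed the pseudocount, scaling, filter and fold, and left out each animal in turn.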

Additional observations from a re-analysis of the deposited data

How the results depend on the processing

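All 9 genes stayed highest in animal 68 under median of ratios scaling, equal totals without mitochondrially encoded genes and quantile normalization. For median of ratios and equal totals this was bound to hold, since the smallest lead of animal 68 (1.19-fold, Gjb6 over animal 39) exceeded the shift in scale. Of tested genes, 39.3, 40.3 and 36.7% were highest there under these scalings, in that order, against 46.7% as deposited. The median log2 difference of tested genes between animals 68 and 32 moved from 0.07 to -0.02, 0.01 and -0.05. The number over 2-fold higher in animal 68 than in animal 39 was 5 as reported, 3 under each of these scalings (3.73, 3.7 and 3.19% of tested genes), 2 with a pseudocount of 1 (2.45%) and 3 with a filter of 5 FPKM (1.99%), which leaves out Sox9 and Aldh1l1. With that filter, 3 genes were over 2-fold higher in animal 68 than in animal 32 (5.99%). With 1.5-fold in place of 2-fold, 2 genes were higher in animal 39 than in animal 32 (8.1%). The median SD of the 9 genes ran from 0.34 (without animal 68) to 0.71 (without animal 32) when 1 animal was left out. It was 0.26 relative to the other astrocyte genes, whose mean was itself higher in animal 68 than in animal 32. Levels of the 9 genes stayed within 1 SD under the 3 scalings. For median of ratios and equal totals this could hardly be otherwise, since their factors lay between 0.969 and 1.035. The mean of Gfap moved from 199 to 123 FPKM without animal 68. With 3 animals, the exact test between genes could not go below p = 0.25.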
